A study of Mus musculus with 4 samples.

Results

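Rab GTPases were examined in recruited alveolar macrophages, the monocyte-derived cells that enter the airspaces of the lung after injury. The genes were taken by name only: every row of the count table whose symbol is Rab followed by 1 or 2 digits and at most 1 letter. The rule found 50 of the 16360 rows. Rab effectors and regulators with longer names were not members and are described apart. Of the 50 genes, 45 passed the filter on low counts and entered the test, and Rab15, Rab25, Rab26, Rab30 and Rab42 did not.

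The study compared wild-type (WT) male mice with male mice homozygous for R213G, an arginine-to-glycine variant of EC-SOD (extracellular superoxide dismutase). Sod3 encodes this antioxidant enzyme, which cells secrete. The labels give the strain as CD57/Bl6 and the age as 8 to 10 weeks for both genotypes. All mice had been given bleomycin, a lung-injuring agent of fibrosis models, through the trachea (100 µl of a 1 U/ml solution). Cells were sorted 7 days later as high for CD64, low for Siglec-F and high for CD11b, and 2 poly(A) RNA libraries were sequenced per genotype. No untreated mice are among the samples, so a level here is a level after bleomycin. Whether the libraries of a genotype are separate mice is not stated in the labels, so the p-values reflect only how these libraries vary, which may be technical.

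Rab proteins are small GTPases that mark membranes. Bound to GTP and anchored by a lipid tail, a Rab recruits effectors that tether, move or fuse vesicles, and exchange factors and GTPase-activating proteins switch it on and off. In a macrophage they set the fate of what is taken up: a new phagosome first carries Rab5, which promotes fusion with early endosomes, and then exchanges it for Rab7, which brings lysosomes to it. Other members return receptors to the surface, move newly made proteins from the endoplasmic reticulum through the Golgi, or release stored granules.

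The 4 libraries were alike in size, with 33488569 to 35176210 counts in total, and 13584 to 15047 genes were detected in R213G and 14598 to 15194 in WT. The genes of the sort gate were present as labelled: Fcgr1, which encodes CD64, stood at 243 to 261 CPM (counts scaled to a common library size), Itgam, which encodes CD11b, at 721 to 886 CPM, and Siglecf at 10.8 to 12.1 CPM. The 8 macrophage markers summed to 24890 to 29685 CPM in R213G and 27752 to 31726 CPM in WT. R213G replicate 1 differed from the rest in its lower number of detected genes and in its 1689 CPM of the non-coding transcript Gm42418 against 513 to 702 CPM in the other libraries. Sod3 itself, in which the variant lies, had 4 and 47 counts in R213G against 47 and 96 in WT, and a coding variant is not checked by such counts.

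Rab genes as a group took nearly the same share of the transcriptome in every library. They received 0.469% and 0.464% of all counts in R213G replicates 1 and 2, against 0.451% and 0.459% in WT replicates 1 and 2. Scaled to the effective library size, they summed to 4600 and 4691 CPM in R213G and 4587 and 4567 CPM in WT. Both R213G sums lay above both WT sums, and R213G replicate 1 and WT replicate 1 nearly met.

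Levels of different Rab genes were compared as CPM per kilobase of annotated exon, since a longer transcript gives more reads. On that scale the genes spanned from 206 CPM per kilobase for Rab5c to 0.0160 for Rab30, with Rab26 at 0 counts in all libraries. Of the 50 genes, 11 lay above the 90th percentile of the 13259 tested genes with a length, 32 above the 50th and 12 below the 25th. The 2 highest, Rab5c and Rab7, held 27.1% of the summed level of all members, the 5 highest 49.8% and the 10 highest 71.0%. The order was distinct at the top: the values of Rab5c (205 to 208 over the 4 libraries), Rab7 (165 to 182), Rab1b (127 to 133) and Rab1a (89.0 to 102.5) did not overlap. Further down it was not, and 41 of 48 neighbouring pairs had ranges that overlapped.

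**Figure D1:**
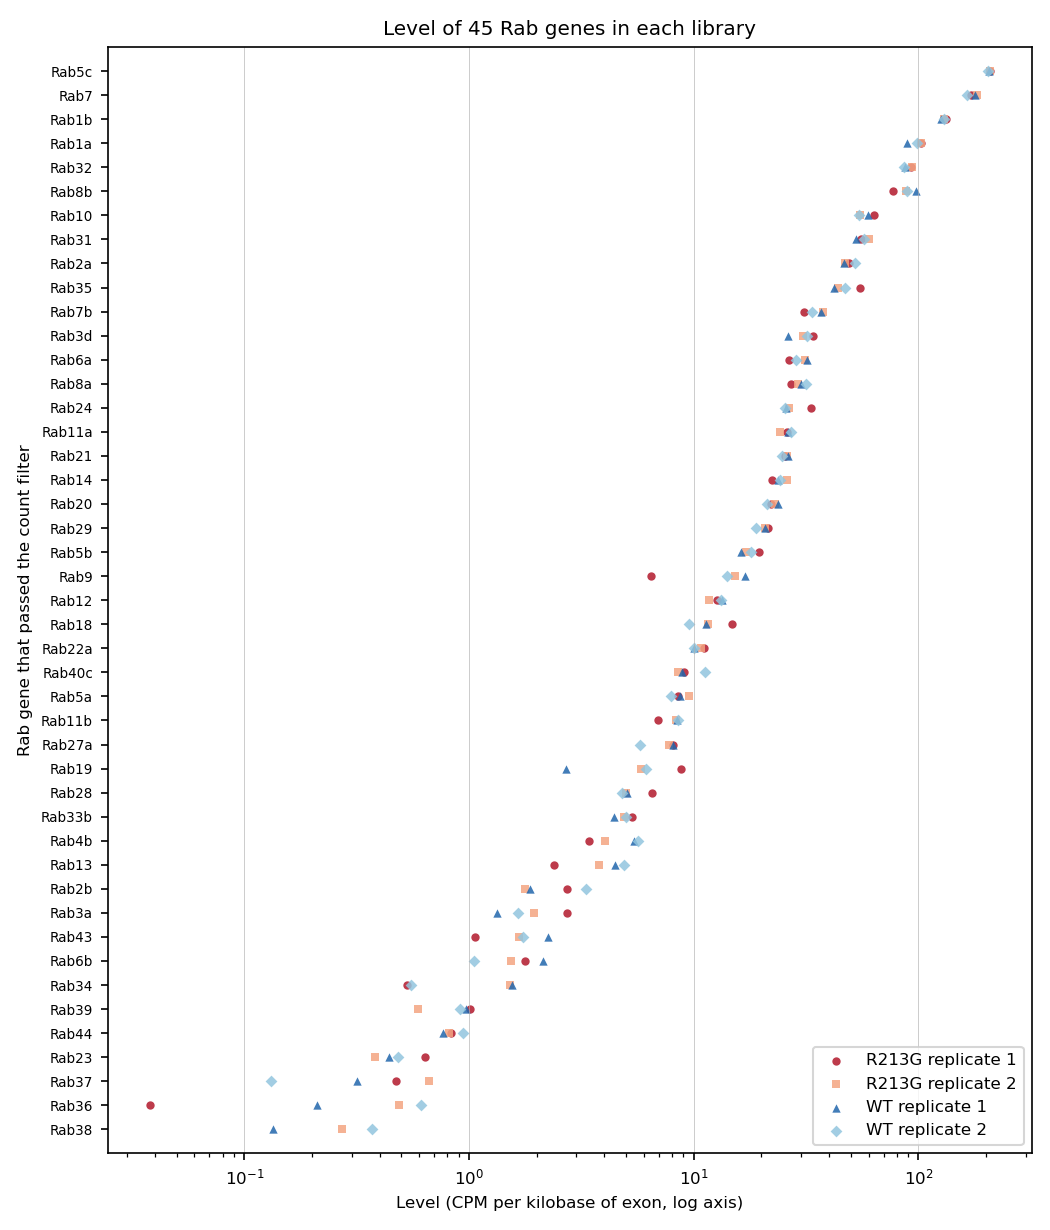
The level of each tested Rab gene in CPM per kilobase of exon, on a log axis, with 1 point for each of the 4 libraries and the genes ordered by their mean. The points of abundant genes such as Rab5c (206 on average) lie on top of each other, those of low genes such as Rab36 spread widely, and Rab38 has no point for R213G replicate 1, where it had 0 counts.

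The bases just before the start sites of the 2 most abundant members and of Rab25, a relative of Rab11 known from epithelia that was nearly silent here, are printed to show what kind of promoter they have. Each is the 250 bases upstream of the RefSeq start (GRCm38.p6), written 5′ to 3′ on the minus strand, on which all 3 genes lie, with every CG dinucleotide in capitals. The windows are chr11:100738216-100738465 for Rab5c, chr6:88045271-88045520 for Rab7 and chr3:88548280-88548529 for Rab25.
Rab5c: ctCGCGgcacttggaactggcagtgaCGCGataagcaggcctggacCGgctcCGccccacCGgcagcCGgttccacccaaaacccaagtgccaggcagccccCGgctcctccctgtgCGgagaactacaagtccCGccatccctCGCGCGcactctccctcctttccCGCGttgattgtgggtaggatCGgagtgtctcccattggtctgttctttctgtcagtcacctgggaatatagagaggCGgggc
Rab7: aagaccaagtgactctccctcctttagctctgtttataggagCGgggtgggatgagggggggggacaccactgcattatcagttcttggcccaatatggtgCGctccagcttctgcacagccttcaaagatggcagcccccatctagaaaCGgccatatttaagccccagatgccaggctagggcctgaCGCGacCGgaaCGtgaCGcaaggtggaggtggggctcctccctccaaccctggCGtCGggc
Rab25: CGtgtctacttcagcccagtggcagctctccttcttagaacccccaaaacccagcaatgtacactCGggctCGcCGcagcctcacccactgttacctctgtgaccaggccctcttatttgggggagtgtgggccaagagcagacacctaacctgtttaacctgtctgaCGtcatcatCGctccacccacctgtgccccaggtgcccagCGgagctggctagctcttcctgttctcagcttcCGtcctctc
These windows held 18, 10 and 8 CG dinucleotides for Rab5c, Rab7 and Rab25. Promoter windows were found for 41 of the 50 members, and their median was 18 CG dinucleotides, against 16 for the 9752 genes tested here that have a window and 6 for all 27018 genes of the RefSeq promoter table. The GC box, searched as GGGCGG on both strands, occurred in 29 of the 41 member windows (70.7%) and in 58.8% of the windows of genes tested here. Among the members the level per kilobase was only weakly related to the number of CG dinucleotides (Spearman rho 0.160 over 41 genes of the same libraries, a description only). The median was 19 for the 36 members at 1 CPM per kilobase or more. For the 5 members under that level it was 9, with a range of 3 to 27. Rab32, the fifth highest member, had 5 CG dinucleotides, and Rab15, next to silent, had 27.

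The main comparison asked whether any Rab gene differed between R213G and WT macrophages. No member passed: 0 of 45 had an adjusted p under 0.05 in edgeR's quasi-likelihood test, where the share among all 13575 tested genes was 0%. At an unadjusted p under 0.05 there were 0 of 45 members, against 2.22% of all genes by the same rule (0.936% higher and 1.29% lower in R213G), and DESeq2 and limma voom also gave 0 at both thresholds for the members. Fold changes are given as log2, R213G minus WT, with the standard error (SE) of the fit. The median of the 45 members was 0.02, and 26 of 45 were positive, where 49.1% of all genes were and the median of all was -0.01. Without R213G replicate 1, again 0 members passed at either threshold and the median was 0.02. Without R213G replicate 2, 0 passed after adjustment and 6 had an unadjusted p under 0.05, when 1960 genes in all did. Single log2 fold changes leaned on single libraries. When 1 library was left out, 36 of 41 genes followed had a log2 value that changed by over 1.5 times or changed sign. The 5 that did not were Rab4b, Rab22a and Rab32 and, from the machinery list described at the end, Appl1 and Chm. As a ratio of log2 values, this measure also counts small shifts near 0. Rab5c was among the 36, though its log2 value kept to 0.011 to 0.022. The smallest p of a member was 0.0726 unadjusted and 1.00 adjusted, for Rab18.

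The fold changes of the abundant members had narrow 95% intervals. These reflect only how the libraries vary, which may be technical. For 19 of the 21 members with a mean of at least 50 CPM, the whole 95% interval of the fold change lay within 1.5-fold in either direction. Over those 21 the intervals reached from 0.736-fold, for Rab8b, to 1.62-fold, for Rab18. Over all 45 members 24 had an interval within 1.5-fold, and for the lowest genes the intervals were wide, from 0.0509-fold for Rab38 to 7.52-fold for Rab37. Changes of those low genes within such intervals, even large ones, could not be told from none at this depth and number of libraries.

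**Figure D2:**
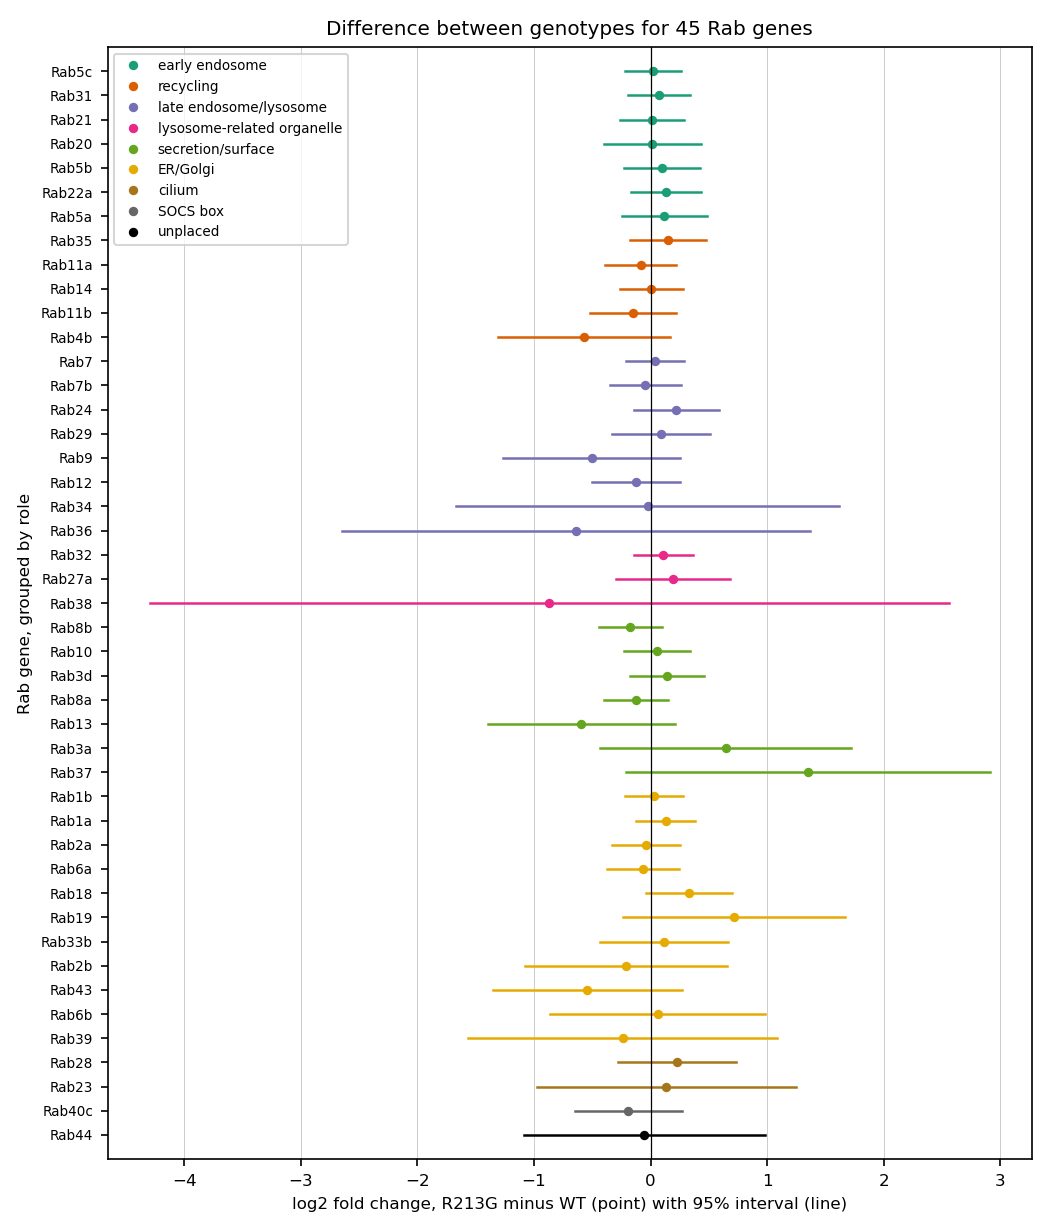
The log2 fold change of each tested Rab gene (point) with its 95% interval (line), R213G minus WT, colored by role and ordered by level within a role. Every interval includes 0; those of abundant genes such as Rab5c (-0.22 to 0.26) are narrow, and those of low genes such as Rab38 (-4.30 to 2.56) are wide.

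The genotypes' libraries did not overlap for 17 of 45 members (37.8%), 9 with R213G above and 8 below. Among all tested genes the libraries did not overlap for 28.9%, with 13.7% above and 15.2% below. A stricter reading asks whether the difference between genotype means exceeded both gaps between replicates, on the scale of log2(CPM + 1). That held for 8 members (17.8%), against 17.4% of all genes, so the members' share was near the background. The 8 were Rab5c, Rab22a, Rab32, Rab8a, Rab12, Rab4b, Rab3a and Rab37. For the first 5 of them the difference was 0.13 or less, and the larger replicate gap was 0.11 or less.

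**Figure D3:**
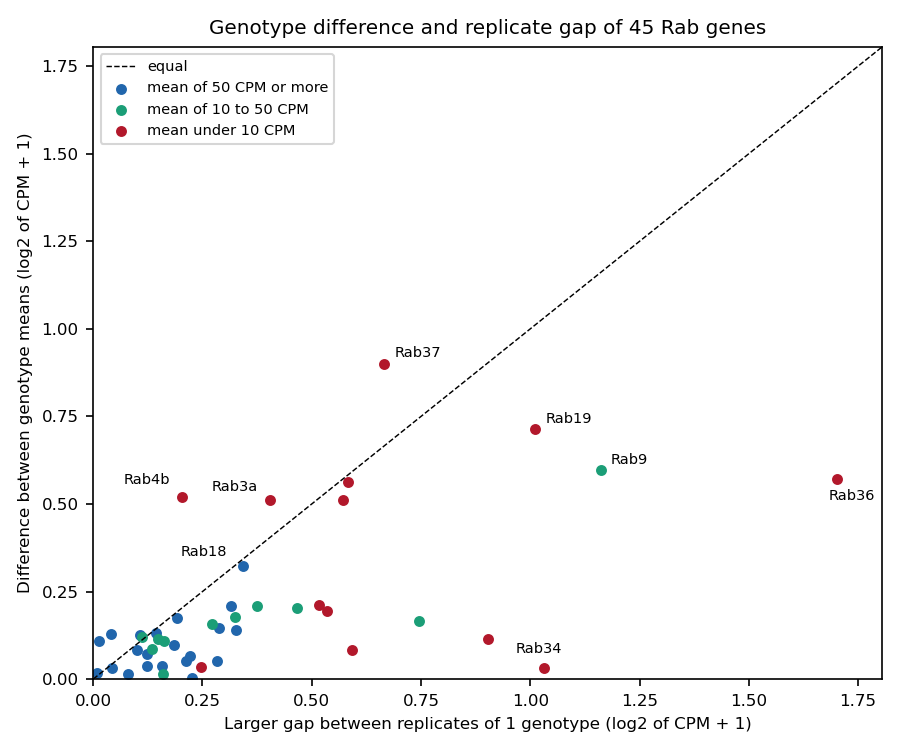
For each tested Rab gene, the difference between genotype means against the larger gap between replicates of 1 genotype, both as log2(CPM + 1), with colors for mean level. Points above the dashed line of equality (8 genes, Rab37 and Rab4b among them) differ more between genotypes than between replicates, and most genes lie below it.

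Early endosome and early phagosome Rabs were the largest group by level, with 24.8% of the summed level of all members. They summed to 349 and 355 CPM per kilobase in R213G and 344 and 344 in WT. All 7 tested genes had positive log2 fold changes with all libraries, where 49.1% of all tested genes did. Their median was 0.07, with Rab5c, Rab20 and Rab21 at 0.01 to 0.02, and 0 passed. Rab20 and Rab21 turned negative when 1 library was left out. Rab5c (chromosome 11, 100715009 to 100738215, minus strand) was the most abundant Rab per kilobase. It stood at 455 and 457 CPM in R213G replicates 1 and 2, against 452 and 449 CPM in WT replicates 1 and 2. Its 4 values lay within 1.02-fold of each other, and the log2 fold change was 0.02 ± 0.11 (SE). The other genes for Rab5 proteins, which drive the fusion of early endosomes, were lower. Rab5b stood at 81.9, 71.9, 68.2 and 75.3 CPM in R213G 1, R213G 2, WT 1 and WT 2 (0.10 ± 0.14, or 0.003 to 0.19 with 1 library left out). Rab5a was at 45.02, 50.04, 45.9 and 41.7 CPM (0.12 ± 0.16, or 0.036 to 0.19 with 1 library left out). For both, the ranges of the genotypes overlapped.

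Rab31 and Rab22a, close relatives that act between the Golgi, early endosomes and the phagosome, were both well expressed. Rab31 stood at 211 and 230 CPM in R213G and 201 and 218 CPM in WT (0.07 ± 0.12 as log2, or 0.007 if R213G replicate 2 is left out). Rab22a was at 80.3 and 78.0 CPM in R213G and 72.4 and 72.2 CPM in WT, so the genotypes did not overlap (0.13 ± 0.13, unadjusted p = 0.352 in edgeR). Rab21, which moves integrins into endosomes, was at 125 to 132 CPM in all libraries (0.01 ± 0.12). Rab20, which is induced in activated macrophages and acts in phagosome maturation, was at 30.8 and 32.2 CPM in R213G and 32.96 and 29.4 CPM in WT (0.01 ± 0.19). For each of these 4 genes the fold change was smaller than its SE. Of the exons of Rab20, 25.6% of the bases are shared with E230013L22Rik on the opposite strand.

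Recycling Rabs return membrane and receptors to the cell surface. Of their 5 tested genes 2 were positive, the median log2 fold change was -0.08, and 0 passed. Rab14, found on early endosomes and phagosomes as well as the Golgi, was at 302 and 353 CPM in R213G and 322 and 330 CPM in WT (0.01 ± 0.12), with the R213G values on either side of the WT values. Rab35, which sends cargo back by a fast route, was at 156 and 124 CPM in R213G and 119 and 133 CPM in WT (0.15 ± 0.15, and -0.025 without R213G replicate 1). Rab11a, the mark of the recycling endosome, was at 78.1 and 72.8 CPM in R213G and 78.6 and 81.4 CPM in WT (-0.08 ± 0.13). Its relative Rab11b was also below WT in both R213G libraries, at 42.3 and 51.3 against 51.8 and 52.4 CPM (-0.15 ± 0.16).

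Rab4b had a larger difference among recycling genes. It had 230 and 275 counts in R213G against 353 and 382 in WT, or 6.74 and 7.90 against 10.7 and 11.1 CPM. Both R213G values were below both WT values, and the log2 fold change was -0.57 ± 0.33 (unadjusted p = 0.113). The count itself is uncertain, since 65.0% of the exon bases of Rab4b are shared with the same-strand gene Gm21983. Rab25 had 0 counts in both R213G libraries and 10 and 5 in WT. Its WT mean was 2.58 times a floor of 3 counts per R213G library. Rab15 had 0 counts in both R213G libraries against 7 in each WT library, and its WT mean was 2.39 times that floor. The floor covers counting error of the 0 values only, the WT counts were taken as exact, and neither gene entered the test. In WT, Rab25 was at 0.303 and 0.146 CPM and Rab15 at 0.212 and 0.204 CPM. The 8 epithelial markers summed to 221 and 111 CPM in R213G and 167 and 101.6 CPM in WT, with Cdh1 leading and Krt8 at 0 in all libraries but WT replicate 2; their part in the Rab25 counts was not tested. In bulk libraries such as these, fewer cells of a type and less RNA per cell cannot be told apart.

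Late endosome, lysosome and autophagosome Rabs held 20.3% of the summed level. Of 8 tested genes 3 were positive, the median log2 fold change was -0.04, and 0 passed. Rab7 (chromosome 6, 87999106 to 88045270, minus strand), which joins phagosomes and late endosomes to lysosomes, was second in level. It was measured at 446 and 476 CPM in R213G and 468 and 429 CPM in WT, with a log2 fold change of 0.04 ± 0.11 and overlapping genotypes. Rab7b, which acts between late endosomes and the Golgi, was at 143 and 174 CPM in R213G and 171 and 156 CPM in WT (-0.04 ± 0.14). The gap between the R213G libraries was 0.28 on the scale of log2(CPM + 1), against a difference of 0.05 between genotypes. Reads of Rab7 may be split with the pseudogene Rab7-ps1, which holds 11.1% of its stretches of 50 bases.

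Rab9, which returns mannose 6-phosphate receptors from late endosomes to the Golgi, differed more between replicates than between genotypes. It had 387 and 925 counts in R213G against 975 and 841 in WT, or 11.3 and 26.6 against 29.5 and 24.5 CPM. R213G replicate 1 was 2.16-fold below the lowest other library, and the rest were alike. The log2 fold change was -0.51 ± 0.34 with all libraries, -0.02 without R213G replicate 1 and -1.25 without R213G replicate 2. Rab36 also had its lowest value in R213G replicate 1, at a much lower level, with 8 and 105 counts in R213G against 43 and 129 in WT. Rab34, which acts in phagosome maturation, had 43 and 126 counts in R213G against 123 and 45 in WT. Here each genotype held a low and a high library, and the log2 fold change was -0.03 ± 0.73.

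Rab24, an atypical member linked to autophagy, was at 66.8 and 53.5 CPM in R213G and 51.8 and 51.3 CPM in WT. The genotypes did not overlap, but the gap between the R213G libraries was larger than the difference, and the log2 fold change of 0.22 ± 0.16 became 0.05 without R213G replicate 1 and 0.37 without R213G replicate 2. Of its exon bases 62.4% are shared with Prelid1 on the opposite strand. Rab12, which acts in the breakdown of recycled receptors and in autophagy, was at 38.5 and 35.6 CPM in R213G and 40.4 and 40.2 CPM in WT, and Rab29, a partner of the kinase Lrrk2 at lysosomes and the Golgi, at 27.7 to 31.4 CPM in all libraries.

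Lysosome-related organelle Rabs were led by Rab32, which acts in the making of such organelles and in defence against bacteria inside macrophages. Rab32 was at 217 and 219 CPM in R213G and 203 and 201 CPM in WT. On the scale of log2(CPM + 1), the replicates were 0.013 apart in R213G and 0.010 apart in WT, and the genotypes differed by 0.11. The fitted log2 fold change was 0.11 ± 0.11 (unadjusted p = 0.358 in edgeR), with a 95% interval of -0.14 to 0.36. It kept to 0.10 to 0.12 when any 1 library was left out. Rab38, its relative in pigment cells and lung epithelium, was all but absent, with 0 and 15 counts in R213G against 7 and 20 in WT. Rab27a, needed for the release of such organelles, was at 31.3 and 30.1 CPM in R213G and 31.4 and 22.4 CPM in WT (0.19 ± 0.22). Its WT replicate 2 was the lowest library, and the value without it was -0.03, against 0.45 without WT replicate 1.

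Secretory vesicle and plasma membrane Rabs had 4 of 7 tested genes positive, a median log2 fold change of 0.06 and 0 past the test. Rab8b, which carries vesicles to the plasma membrane, was at 365 and 417 CPM in R213G and 461 and 422 CPM in WT. Both R213G values were below both WT values, and the log2 fold change was -0.17 ± 0.12 (unadjusted p = 0.177 in edgeR), or -0.08 without R213G replicate 1 and -0.28 without R213G replicate 2. Its relative Rab8a also had both R213G values below both WT values, at 127 and 137 against 141 and 148 CPM (-0.13 ± 0.12). Rab10, which takes part in the delivery of Toll-like receptor 4 to the surface, was at 224 and 193 CPM in R213G and 209 and 192 CPM in WT (0.06 ± 0.13). Rab3d, a Rab of secretory granules, was at 142 and 128 CPM in R213G and 110 and 134 CPM in WT (0.14 ± 0.14). Without WT replicate 1 the Rab3d value was 0.005, and without WT replicate 2 it was 0.29.

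The low members of the secretory group had larger differences with larger errors. Rab37, linked to granule release, had 86 and 123 counts in R213G against 56 and 24 in WT (1.35 ± 0.70 as log2, edgeR unadjusted p = 0.0829). Its R213G values were above its WT values, at 2.52 and 3.53 against 1.69 and 0.699 CPM, and the fold change ranged from 0.84 without WT replicate 2 to 2.11 without WT replicate 1. Rab3a, best known from synaptic vesicles, had 207 and 151 counts in R213G against 98 and 126 in WT (0.64 ± 0.48), and the fold change was 0.39 without R213G replicate 1. Rab13, known from cell junctions, differed in the other direction, with 187 and 303 counts in R213G against 338 and 385 in WT (-0.59 ± 0.36). Leaving out R213G replicate 1 gave -0.30 for Rab13, and leaving out R213G replicate 2 gave -0.97.

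Endoplasmic reticulum and Golgi Rabs held 23.9% of the summed level. Of 11 tested genes 6 were positive, the median log2 fold change was 0.03, and 0 passed. Rab1a and Rab1b, which carry traffic from the endoplasmic reticulum to the Golgi, ranked 4 and 3 among all members per kilobase. Rab1a stood at 389 and 389 CPM in R213G and 338 and 374 CPM in WT (0.13 ± 0.11), and Rab1b at 302 and 295 CPM in R213G and 288 and 296 CPM in WT (0.03 ± 0.11). For Rab1a the genotypes did not overlap, while the gap between the WT libraries exceeded the difference. Rab2a, which acts at the Golgi and in the delivery of membrane to lysosomes, was at 99.6 to 111 CPM (-0.04 ± 0.13).

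Rab18 had the smallest p of all members. This Rab of the endoplasmic reticulum and lipid droplets was at 101 and 79.4 CPM in R213G and 77.9 and 65.5 CPM in WT, with a log2 fold change of 0.33 ± 0.16 and a 95% interval of -0.04 to 0.70. The genotypes did not overlap, but R213G replicate 2 and WT replicate 1 were nearly level, and the gap between the R213G libraries (0.34 on the scale of log2(CPM + 1)) was larger than the difference (0.32). Leaving out R213G replicate 1 gave a fold change of 0.15, and leaving out R213G replicate 2 gave 0.49. Rab19, a little-studied Golgi Rab, had 470 and 320 counts in R213G against 141 and 330 in WT (0.72 ± 0.43). WT replicate 1 set it apart, since the value without that library was 0.25 and without WT replicate 2 was 1.43. Rab43 had 200 and 320 counts in R213G against 411 and 329 in WT (-0.54 ± 0.36; -0.26 without R213G replicate 1 and -0.91 without R213G replicate 2), and 75.4% of its exon bases are shared with Gm45140 on the same strand. Among the remaining Golgi genes, Rab6a was at 99.4 to 119 CPM (-0.07 ± 0.14) and Rab33b, linked to autophagy, at 15.7 to 18.8 CPM (0.11 ± 0.24). Rab2b, Rab6b and Rab39 were at 1.75 to 13.8 CPM, and their genotypes overlapped.

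The members with other roles were low or middling. Rab28 and Rab23, which act at the cilium, were at 21.7 to 29.6 CPM (0.23 ± 0.23) and 3.16 to 5.27 CPM (0.14 ± 0.50). The Rab28 value was 0.023 when R213G replicate 1 was left out and 0.41 when R213G replicate 2 was. Rab40c, an adaptor of a ubiquitin ligase, was at 28.0 and 26.4 CPM in R213G and 27.4 and 34.6 CPM in WT (-0.19 ± 0.20). Its value became -0.014 without WT replicate 2 and -0.35 without WT replicate 1. Rab44, a large Rab with extra domains, had 144 and 144 counts in R213G against 128 and 164 in WT (-0.05 ± 0.46). Rab42 had 14 counts in R213G replicate 2 and 0 in the other libraries, and Rab30 had 0 and 5 counts in R213G against 6 and 10 in WT. Rab42 did not enter the test, and its R213G replicate 1 was at 0 like both WT libraries. For Rab30 both R213G values were below both WT values, by a few counts.

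Where several members are close relatives, 1 of them usually supplied most of the level, and the same one in every library. Rab5c made up 88.1% to 89.2% of the summed CPM per kilobase of Rab5a, Rab5b and Rab5c. Rab7 made up 82.9% to 84.7% of Rab7 and Rab7b, and Rab31 83.2% to 85.1% of Rab22a and Rab31. Rab32 supplied at least 99.6% of its pair with Rab38, Rab2a 94.0% to 96.4% of its pair with Rab2b, and Rab6a 93.7% to 96.5% of its pair with Rab6b. Only Rab1a and Rab1b shared their level nearly evenly among the 10 sets examined, with Rab1b at 55.9% to 58.7%. The genotypes differed by at most 1.87 percentage points in these shares, the largest for Rab3a and Rab3d, where the larger gap between replicates was 1.45 points. In 8 of the 10 sets the gap between replicates was the larger one, the other exception being Rab5c at 0.61 against 0.58 points.

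**Figure D4:**
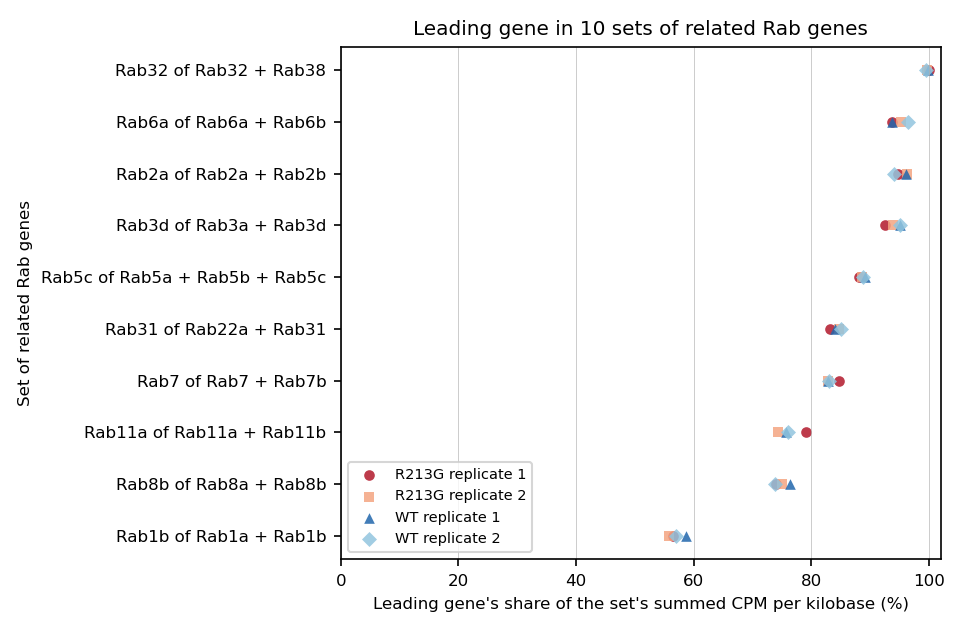
The share of the leading gene in the summed CPM per kilobase of 10 sets of related Rab genes, in percent, with 1 point per library. The 4 points of a set lie close together, from 55.9% to 58.7% for Rab1b to nearly 100% for Rab32, whatever the genotype.

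Over all 4 libraries, both genotypes included, the highest library was 1.02 to 1.54 times the lowest among the 21 members of at least 50 CPM and 1.12 to 2.60 times among the 11 of 10 to 50 CPM. Within genotypes, the larger replicate gap was mostly smaller in members of higher mean CPM, with a Spearman rho of -0.722 over the 45 tested members, which share the same 4 libraries. Rab9, with a gap of 1.16, and Rab44, with 0.25 at a lower level, went against that order. R213G replicate 1 was the lowest library for 13 members and the highest for 16, so it was not low throughout. The other libraries were each the lowest for 6 to 15 members and the highest for 8 to 11. The median larger gap was 0.25 for the members and 0.37 for all tested genes.

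The proteins that act on Rabs were read from a list of 140 delivery factors, exchange factors, GTPase-activating proteins, effectors and kinases, of which 136 were in the table and 131 were tested. None passed at an adjusted p under 0.05 (edgeR; also 0 by DESeq2 and limma voom), and 1 had an unadjusted p under 0.05, or 0.763% against 2.22% of all genes. Of the 131, 55 were positive, with a median of -0.04, which turned to 0.022 without R213G replicate 1 and was -0.090 with R213G replicate 2 left out. The unadjusted count of 1 became 0 without R213G replicate 1 or WT replicate 1 and 15 without R213G replicate 2. Appl1, an effector of Rab5 on early endosomes, was that gene, at 63.3 and 54.3 CPM in R213G and 41.9 and 47.1 CPM in WT (0.40 ± 0.16 as log2, edgeR unadjusted p = 0.0351 and adjusted p = 1.00). Both of its R213G values were above its WT values. With 1 library left out, its log2 fold change ranged from 0.29 without R213G replicate 1 to 0.51 without R213G replicate 2.

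With Appl1, the lowest p-values on the list, 3 for each direction of change, belonged to 5 more genes, which were not past either threshold. Chm, the escort protein that presents Rabs for lipid attachment, was at 33.1 and 28.4 CPM in R213G and 22.8 and 23.0 CPM in WT (0.43 ± 0.20). Rabep2, an effector of early endosome Rabs, was at 21.4 and 22.3 against 32.8 and 26.8 CPM (-0.45 ± 0.21). Its value was -0.30 without WT replicate 1 and -0.59 without WT replicate 2. Dennd4b, an exchange factor for Rab10, was at 111 and 145 against 152 and 164 CPM (-0.30 ± 0.15), which became -0.13 without R213G replicate 1 and -0.51 without R213G replicate 2. Unc13d, which works with Rab27a in granule release, was at 29.0 and 28.2 against 42.4 and 32.96 CPM (-0.40 ± 0.20). Without WT replicate 1 it had a value of -0.21, and without WT replicate 2 of -0.57. Tbc1d10c, a GTPase-activating protein, had 330 and 37 counts in R213G against 89 and 36 in WT. Its fold change of 1.52 ± 0.93 became -0.80 without R213G replicate 1 and 2.37 without R213G replicate 2.

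By kind, the exchange factors had 13 of 31 genes positive and the GTPase-activating proteins 17 of 34. Effectors of early and recycling endosomes had 9 of 20 positive, effectors of late endosomes and lysosomes 7 of 20, and effectors of secretion 1 of 10, with a median of -0.13. The 7 genes for delivery and prenylation had 4 positive, and the 7 Golgi effectors 4. The Rab kinases Lrrk1 and Lrrk2 were both negative, with a median of -0.08. No kind held a gene that passed. Among all tested genes 49.1% were positive. The median of the whole list was -0.04 and turned to 0.022 without R213G replicate 1.

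Markers of other cells that a sort could carry over summed to less than the macrophage markers in all libraries. That macrophage sum was mostly Lyz2, at 19065 to 25101 CPM. The epithelial markers, given above with Rab25, reached 221 CPM in R213G replicate 1. The 8 resident alveolar macrophage markers summed to 269 and 275 CPM in R213G and 186 and 575 CPM in WT, led by Chil3 and highest in WT replicate 2. In that library Chil3 was at 504 CPM, above Adgre1 at 484 CPM and Fcgr1 at 243 CPM. Platelet markers (4 of 7 in the table) summed to 17.9 to 36.6 CPM, led by Pf4 at 17.1 to 35.2 CPM. T and NK cell markers (6 of 8) summed to 15.3 to 23.4 CPM, led by Cd2 at 13.0 to 22.8 CPM. In both lists every other marker was at 2.20 CPM or less. Neutrophil markers (3 of 8) summed to 11.7 to 20.7 CPM, led by S100a8 at 11.1 to 19.7 CPM. S100a9 had 31 counts in R213G replicate 1 and 0 in the other libraries. Endothelial markers (3 of 6) summed to 6.495 to 9.14 CPM, led by Kdr. B cell markers (2 of 6), led by Cd79b, reached at most 2.21 CPM, and the fibroblast marker Col1a1 had 1 count in all. Of the 6 mast cell and basophil markers, 0 were in the table. The part of these cells in the Rab values was not tested.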

How the data were processed

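Recruited alveolar macrophages of 2 genotypes were sequenced, 2 libraries each. The deposited table holds unnormalized whole-number counts, 1 row per symbol. STAR 2.5.1b, featureCounts, Subread 1.4.4 and the build GRCm38 are named by the submitters' processing notes. Which annotation and strand setting were used, and how multi-mapping or overlapping reads were counted, is not given in the sources used here.

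Groups and replicate numbers came from the titles, and columns were matched by the labels' short names. The libraries differed beyond sampling noise (chi-square per degree of freedom of at least 17.5). Pairs with R213G replicate 1 were at 47.1 to 57.1, highest with R213G replicate 2, and the other pairs at 17.5 to 33.2. Genes were tested with the edgeR 4.0.16 quasi-likelihood test (newer form, robust, TMM, filterByExpr by group) in R 4.3.3, over 13575 genes, with Benjamini-Hochberg adjustment at 0.05. With 2 residual degrees of freedom, it gave a biological coefficient of variation of 0.374. CPM uses the TMM library size. An exact permutation test of 2 against 2 libraries cannot go below 0.333 and was not used. SE is the log2 fold change divided by the square root of F. Lengths, positions, exon overlaps and shared stretches of 50 bases came from GENCODE vM21 (GRCm38), with 15822 symbols (96.7%) and all 50 members matched. Promoters came from RefSeq. The 95% intervals of fold changes come from the fit and include the spread between libraries. The floor of 3 counts covers counting error of the 0 values only.

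The members, role lists, machinery list, markers and tests were chosen with earlier results of these data known. Named genes were the 3 highest of each role, 16 phagosome genes and the 5 of smallest p in each direction; other members are added for completeness, after their values were seen. The test was checked on simulated data. Alternatives were DESeq2 1.42.0, its size factors, limma 3.58.1 voom, upper-quartile scaling, other filters, the legacy form, a replicate block, a threshold of 0.1, other lengths and leaving out each library.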

Additional observations from a re-analysis of the deposited data

How the results depend on the processing

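No setting called a Rab gene or a gene of the machinery list at an adjusted p under 0.05. Over all genes the count of 0 became 1 with DESeq2 (Clrn2) and ranged from 0 to 2 when 1 library was left out, the 2 being Lars2 and Gm42418 without R213G replicate 2. The count of Rab genes at an unadjusted p under 0.05, 0 with all libraries, was 6 without R213G replicate 2 (Rab8b, Rab9, Rab13, Rab18, Rab24 and Rab36), 1 without WT replicate 2 (Rab19) and 0 without either other library, and that of the machinery list, 1 with all libraries, ranged from 0 (without R213G replicate 1 or WT replicate 1) to 15 (without R213G replicate 2). Over all genes the unadjusted count of 302 became 1960 without R213G replicate 2, 71 without WT replicate 1, 150 among genes of at least 5 CPM and 201 with limma voom. The Rab median was 0.02 with all libraries and 0.009 to 0.024 when a library was left out. It was 0.03 among genes of at least 5 CPM. Without Rab2b, Rab4b, Rab24 and Rab43, which each share over 50% of their exon bases with another gene, it was 0.03. That setting was added after seeing the data. The median of the machinery list ranged from -0.090 (without R213G replicate 2) to 0.022 (without R213G replicate 1) when a library was left out. With the replicate number as a block the Rab median was 0.02, 0 Rab genes and 0 genes in all passed, and 1 Rab gene (Rab18) and 3 machinery genes had an unadjusted p under 0.05. The numbers were not taken as pairs, since the replicate 1 minus 2 differences of the genotypes had a correlation of 0.0926 over genes. Of 41 genes whose fold change was followed, 25 kept their sign in all 12 settings, 2 low genes (Rab3a and Rab37) kept it in the 11 settings that gave them a value, and 14 changed it, in each case only when a library was left out. Their log2 fold changes then ranged as follows: Rab10 -0.054 to 0.16, Rab14 -0.11 to 0.12, Rab20 -0.066 to 0.098, Rab21 -0.027 to 0.054, Rab23 -0.28 to 0.46, Rab27a -0.032 to 0.45, Rab2a -0.12 to 0.041, Rab34 -0.99 to 0.90, Rab35 -0.025 to 0.30, Rab38 -6.78 to 0.11, Rab44 -0.19 to 0.11, Rab7 -0.022 to 0.10, Rab7b -0.20 to 0.092, Tbc1d10c -0.80 to 2.37. With the longest transcript as length, 9 of the 10 highest members per kilobase were the same, and Rab14 rose from 24.1 to 65.3 CPM per kilobase, so its rank depends on the length taken. The causes were not tested. With 2 libraries a genotype, members under 10 CPM are known only loosely. Where a library was left out, the lone library of that genotype was assumed to vary like those of the other.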
